A study of Drosophila melanogaster with 48 samples.

Results

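Heat shock genes encode chaperones and their regulator. Heat shock factor, the product of Hsf, binds the promoters of these genes and drives their transcription when proteins unfold. Hsp83 is the fly Hsp90, Hsp68 is an inducible member of the Hsp70 family, DnaJ-1 is an Hsp40 cochaperone that delivers clients to Hsp70, and Hsp22, Hsp23, Hsp26, Hsp27 and Hsp67Ba belong to the small heat shock protein family, whose members hold unfolded proteins until they can be refolded. In flies the promoters of several of these genes are open and carry a paused polymerase even without stress. Zelda (Zld) is a pioneer transcription factor, able to bind DNA within closed chromatin, and is best known for opening the genes first transcribed in the embryo.

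The 9 genes above were examined out of 17684 annotated genes on 6 chromosome arms, 13922 of them protein-coding. Each gene was given every anti-Zld summit, the base of highest signal within a peak or part of a peak, that lay inside its annotated span or within 2 kb of either end. The measurements come from CUT&RUN, in which a nuclease tethered to an antibody cuts out the DNA around the bound protein. Of the 48 samples of the series, 4 are anti-Zld samples from brains of third-instar larvae, 2 titled UAS-HA-Zld and 2 titled brat, with 50 brains in each reaction. The genotype given for all 4 is the same: the allele brat11 over a deficiency (DF), Tub-Gal80ts, and UAS-HA-Zld with WorGal4. These stand for loss of the translational repressor brat, a heat-sensitive repressor of Gal4 made from a tubulin promoter, and HA-tagged Zld under a Gal4 line active in neuroblasts. Only the titles separate the conditions, so whether the samples titled brat lack the transgene could not be checked from the genotype. Larvae of both conditions were reared at 18°C and held at 33°C for 24 h. No unshifted sample entered the comparison, so nothing below measures the effect of the warm shift on the heat shock genes. The cell type label, type II neuroblast, was not checked, since peak lists hold no expression. Brain IgG samples were not analysed here.

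One peak list per condition was analysed and none per replicate, so no difference between conditions can be set against replicate spread and none was tested. The lists held 16252 summits in UAS-HA-Zld and 13826 in brat. Solving the caller's fold enrichment and p-value for the fragment pileup and its local background gave a whole number of fragments at 100% of summits, with a genome-wide background floor of 28.8 fragments in UAS-HA-Zld and 22.6 in brat. Intervals below are exact Poisson 95% intervals on the pileup with the background held fixed. They cover counting error only, and amplified duplicate fragments are not independent molecules. In whole brains, fewer cells with Zld at a site and less Zld per cell cannot be told apart.

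Zld summits lay at 8 of the 9 genes in UAS-HA-Zld brains and at the same 8 in brat brains, with Hsp68 the exception in both. Over all protein-coding genes, 43.1% had a UAS-HA-Zld summit and 43.4% a brat summit. Among the 10003 genes no longer than the longest of the 9 (4332 bp), the shares were 34.4% with a UAS-HA-Zld summit and 34% with a brat summit. None of the 9 genes had a summit in 1 list only, against 6.44% of protein-coding genes with a UAS-HA-Zld summit only and 6.83% with a brat summit only. The 8 genes are not 8 separate observations, since Hsp22, Hsp26, Hsp67Ba, Hsp23 and Hsp27 lie within 12.8 kb of each other on arm 3L and share summits.

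Fewer summits were listed at these genes in UAS-HA-Zld than in brat. Counted once each, there were 24 in UAS-HA-Zld, in 14 peaks covering 10614 bp, and 45 in brat, in 17 peaks covering 16885 bp. Hsp83 alone gave 1 summit in UAS-HA-Zld and 14 in brat. Without Hsp83 the counts were 23 in UAS-HA-Zld and 31 in brat. Of the 8 genes with summits, 7 had fewer in UAS-HA-Zld, 5 of them in the 3L cluster. That was true of 34.4% of all protein-coding genes with a summit in both lists, and of 33% of those no longer than 4332 bp. Hsf was the eighth gene, with 5 summits in each list. All 14 UAS-HA-Zld peaks shared at least 1 bp with a brat peak, where 67.1% of all UAS-HA-Zld peaks did. Of the 17 brat peaks 12 were matched, where 78.1% of all brat peaks were. Without Hsp83, whose limits are given with that gene, 11 of 12 brat peaks were matched (91.7%). When an overlap of at least 50% of both peaks was required, 10 of the 14 UAS-HA-Zld peaks and 10 of the 17 brat peaks were matched. No share over all peaks was computed for that rule. Peaks at these genes were wider than those of the whole lists. The median widths were 678 bp against 549 bp in UAS-HA-Zld and 854 bp against 574 bp in brat. Wider peaks meet a rule of 1 bp more easily, and the part of width in the matched shares was not tested.

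**Figure D1:**
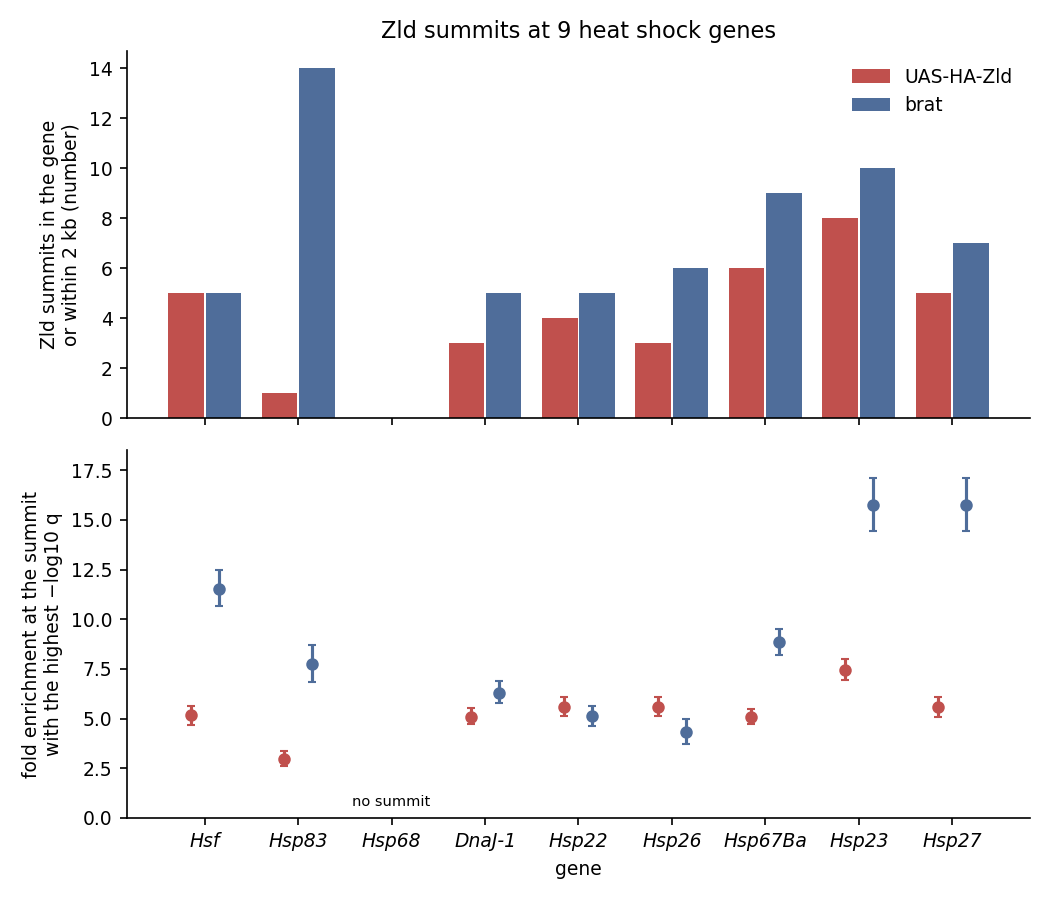
Upper panel, number of Zld summits in each gene or within 2 kb of its ends in UAS-HA-Zld (left bars) and brat (right bars). Lower panel, fold enrichment at the summit with the highest −log10 q in each window, with exact Poisson 95% counting intervals; each point is 1 peak list without replicates. Hsp83 has 1 and 14 summits, Hsp68 has none, and Hsp22 and Hsp26 are the genes whose strongest summit is higher in UAS-HA-Zld.

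The master regulator gene Hsf lies on arm 2R from 18130303 to 18134634 (all positions are in dm6). Its window held 3 peaks in each list, and the 5 summits paired one to one, 8 to 21 bp apart. The strongest of them lay not at Hsf but inside Dlip3, the next gene below it, 1631 bp from Hsf in UAS-HA-Zld and 1650 bp in brat. There the fold enrichment was 5.15 in UAS-HA-Zld (interval 4.69 to 5.65) and 11.5 in brat (10.7 to 12.5). A second summit inside Dlip3 had a fold of 3.13 in UAS-HA-Zld and 8.64 in brat. The pair inside Hsf itself differed little by comparison. The deeper one had a fold of 3.54 in UAS-HA-Zld, at 18133969, and 3.07 in brat, at 18133982. The one nearer the upper end had 2.75 in UAS-HA-Zld and 2.77 in brat, and at each site the counting intervals overlapped. The fifth summit, inside the Polycomb-group gene Pcl, had a fold of 2.20 in UAS-HA-Zld and 3.30 in brat. The sites with intervals apart, all lower in UAS-HA-Zld, thus sat in the 2 neighbouring genes, and those inside Hsf overlapped.

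Hsp83 (3L, 3192969 to 3197059), which encodes the Hsp90 chaperone of kinases and steroid receptors, showed the largest gap in summit number of the 9 genes. The single UAS-HA-Zld summit stood 241 bp above the upper end of the gene, inside the small neighbour CG14966, with a fold of 2.96 (2.59 to 3.37). In brat the same site, 3 bp away, had a fold of 5.57 (4.95 to 6.25). The brat list added 9 summits inside Hsp83, strung along the gene in 3 peaks. The strongest lay 250 bp inside the lower end, with a fold of 7.73 (6.84 to 8.70), the next 1025 bp inside with a fold of 6.09, one between them had 3.26, and the 6 in the middle and upper parts of the gene had folds of 1.67 to 2.23. A further 3 brat summits lay in CG32276, with folds of 2.15 to 3.56, and 1 more lay in CG14966 with 4.33. At least 14 brat summits were found at 117 of the 6049 protein-coding genes with any brat summit, and a surplus of brat over UAS-HA-Zld summits as large as that of Hsp83 at 3 of 13922 genes, Hsp83 among them. This gap carries a limit. The peaks carry running numbers with gaps, amounting to 19.5% of the numbers in each list, so peaks that the caller made were not all analysed here. In UAS-HA-Zld, 3 numbers are absent from the 31.3 kb without a peak that spans Hsp83, and 1 from the 25.8 kb above the peak in CG14966. Whether UAS-HA-Zld peaks matched the 4 unmatched brat peaks of Hsp83 can therefore not be told. The summit above the upper end does not depend on absent peaks, and it was 1.88 times higher in brat.

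DnaJ-1 (3L, 5750029 to 5752189) had 3 summits in UAS-HA-Zld and 5 in brat. The strongest lay 914 bp above the gene in UAS-HA-Zld and 913 bp in brat, inside the deubiquitinase gene Usp47 and 130 bp and 129 bp from its near end. Its fold was 5.10 in UAS-HA-Zld (4.71 to 5.51) and 6.30 in brat (5.77 to 6.87). A smaller summit deeper in Usp47 was the reverse, with 4.15 in UAS-HA-Zld (3.70 to 4.62) and 2.98 in brat (2.53 to 3.49). Inside DnaJ-1 both lists had a weak summit, with folds of 1.42 in UAS-HA-Zld and 1.62 in brat, and their intervals overlapped. The brat list also had summits 411 bp inside the upper end (fold 2.68) and 199 bp above it (3.82), with none paired to them in UAS-HA-Zld, where 1 peak number is absent around the window and 0 are in brat.

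**Figure D2:**
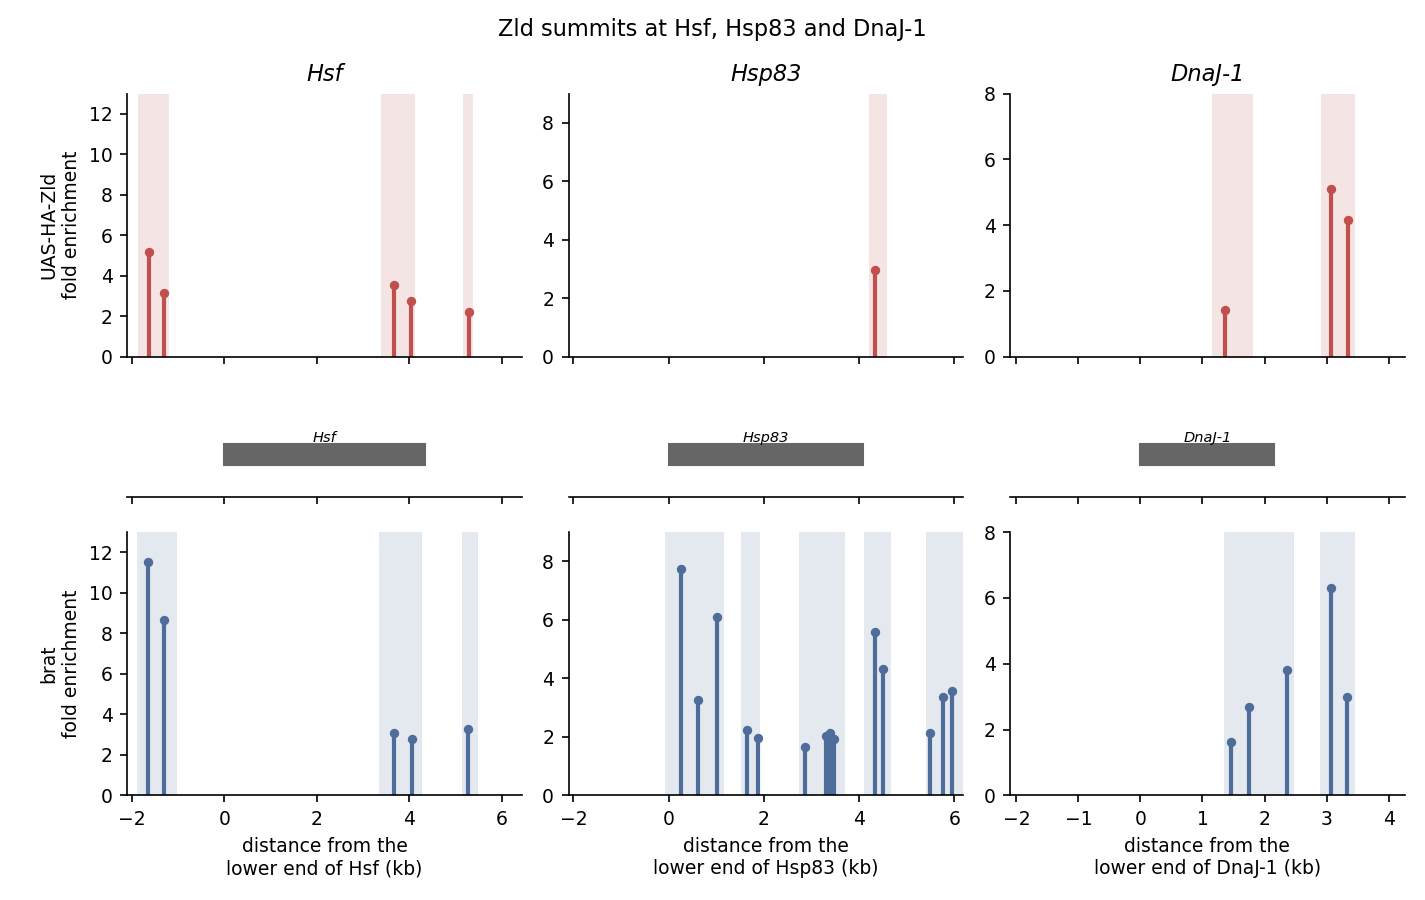
Zld summits at Hsf, Hsp83 and DnaJ-1, with UAS-HA-Zld above and brat below the gene (grey bar). Stems give the fold enrichment at each summit, shaded bands the authors' peaks, and the x axis the distance from the lower end of the gene in kb; the y scale is shared by the lists within a gene. Hsp83 has 9 brat summits inside the gene and no UAS-HA-Zld summit there.

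Hsp68 (3R, 24055080 to 24057310) had no summit in its window in either list, as did 50.1% of protein-coding genes and 59.2% of those no longer than 4332 bp. The nearest UAS-HA-Zld summit lay 2.99 kb below the gene, inside Pisd, with a fold of 1.70. In brat the nearest lay 4.17 kb below, also inside Pisd, with a fold of 5.17. On the other side the nearest summits were 17.01 kb away in UAS-HA-Zld and 35.6 kb away in brat. Between the peaks that flank the window, 1 number is absent from the UAS-HA-Zld list and 0 from the brat list.

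The small heat shock genes of arm 3L form a cluster from 9372931 to 9385694. Among its summits paired within 150 bp, the difference between conditions changed direction from site to site. The 3 pairs higher in UAS-HA-Zld with counting intervals apart joined summits 68 to 108 bp apart. With pairing limited to 50 bp, the fold was lower in UAS-HA-Zld in 12 of 15 pairs over all 9 genes. No share over all pairs was computed for that limit. In all, 15 distinct UAS-HA-Zld summits and 21 distinct brat summits lay at the 5 genes, and 14 of them paired between the lists. The strongest brat summits of the cluster stood in the gap between Hsp23 and Hsp27, and the strongest UAS-HA-Zld summit stood below Hsp23. Numbers are absent here too: 5 from the UAS-HA-Zld list around the window of Hsp22, and 3 around those of Hsp26 and Hsp67Ba. From the brat list 1 is absent around Hsp22 and 2 around each of Hsp23 and Hsp27.

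Hsp22 (9372931 to 9374964), whose product works in mitochondria, overlaps Hsp67Bb, listed as CG4456, over its whole length, so its inner summit belongs to both. That summit, 910 bp above the lower end in UAS-HA-Zld and 882 bp in brat, had a fold of 2.87 in UAS-HA-Zld (2.58 to 3.19) and 5.11 in brat (4.62 to 5.63). Below the gene, towards Hsp67Bc, a pair of weak summits had folds of 1.64 and 1.43 in UAS-HA-Zld and 2.05 and 1.87 in brat, and the intervals overlapped at both. A weak brat summit inside the gene at 9374347, with a fold of 1.78, lay in the cluster's unmatched peak, where 2 UAS-HA-Zld peak numbers are absent. Within the 2 kb limit, Hsp22 also takes the summit inside Hsp26, which is the strongest of its window in UAS-HA-Zld, so the strongest summits of Hsp22 in the lists are 3058 bp apart and are different sites.

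Hsp26 (9376418 to 9377427) held the site most in favour of UAS-HA-Zld among the paired summits at the 9 genes. The summit inside the gene had a fold of 5.60 in UAS-HA-Zld (5.14 to 6.09), from 552 fragments, and of 1.94 in brat (1.62 to 2.29), from 132 fragments, at positions 78 bp apart. The ratio of 2.89 lay at the 96.1st percentile of all pairs of summits in the lists. Brat had a further summit inside Hsp26 with a fold of 2.84 and one 172 bp above it with 4.31, both without a UAS-HA-Zld partner. Comparing only the strongest summit of each list, 728 bp apart, would give a fold of 5.60 in UAS-HA-Zld against 4.31 in brat.

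Hsp67Ba (9377802 to 9379534), the longest of the cluster after Hsp22, had 2 paired summits within the gene. Their folds were 2.32 and 2.66 in UAS-HA-Zld and 2.87 and 2.02 in brat, one lower and one higher in UAS-HA-Zld, with overlapping intervals at both. Brat had 2 further summits there, with folds of 3.73 and 1.40 and no partner. Its strongest summit lay above the gene, in the stretch before Hsp23, 631 bp from the upper end in UAS-HA-Zld and 591 bp in brat. The fold there was 5.08 in UAS-HA-Zld (4.72 to 5.47) and 8.84 in brat (8.19 to 9.52). The local background at this site was 4.88 times the floor in UAS-HA-Zld, the highest of the 24 summits, and 3.39 times in brat, where the highest was 3.60.

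Hsp23 (9381882 to 9382765) had the strongest UAS-HA-Zld summit of the 9 genes. It lay 183 bp below the gene with a fold of 7.46 (6.96 to 7.98), and at the 91.0th percentile of its list by −log10 q. In brat that site, 202 bp below the gene, had a fold of 8.38 (7.71 to 9.10), and the intervals overlapped. Inside Hsp23 the UAS-HA-Zld list had a fold of 4.84 (4.40 to 5.32) and the brat list 2.60 (2.16 to 3.11) at a site 108 bp away. Above the gene, at 253 bp in UAS-HA-Zld and 323 bp in brat, the order turned, with 2.37 in UAS-HA-Zld (1.97 to 2.83) and 5.52 in brat (4.78 to 6.34). A further brat summit inside Hsp23, at 9382163, had a fold of 1.61 and no partner. Of the paired sites named here, the one below the gene had overlapping intervals. The one inside the gene was higher in UAS-HA-Zld and the one above it higher in brat.

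Hsp27 (9384063 to 9385694), a small heat shock gene that the hormone ecdysone also induces during development, had the strongest brat summit of all. That summit, 201 bp below the gene, had a fold of 15.7 (14.5 to 17.1) from 560 fragments in brat, at the 93.2nd percentile of its list. In UAS-HA-Zld the fold 259 bp below the gene was 4.40 (3.84 to 5.01) from 225 fragments. The brat fold was 3.58 times higher, which put the site at the 1.55th percentile of all pairs. A neighbouring summit, 518 bp below the gene in UAS-HA-Zld and 487 bp in brat, had a fold of 4.98 in UAS-HA-Zld and 11.8 in brat. The local background at these sites was low in both lists, at 1.75 and 1.81 times the floor in UAS-HA-Zld and 1.53 and 1.69 times in brat. Inside Hsp27 the UAS-HA-Zld list was the higher one, with 5.56 (5.08 to 6.07) against 4.24 in brat (3.76 to 4.78). The summits of that pair were 68 bp apart. Both sites below Hsp27 also fall within 2 kb of Hsp23, for which the strongest brat summit is therefore the one at Hsp27.

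**Figure D3:**
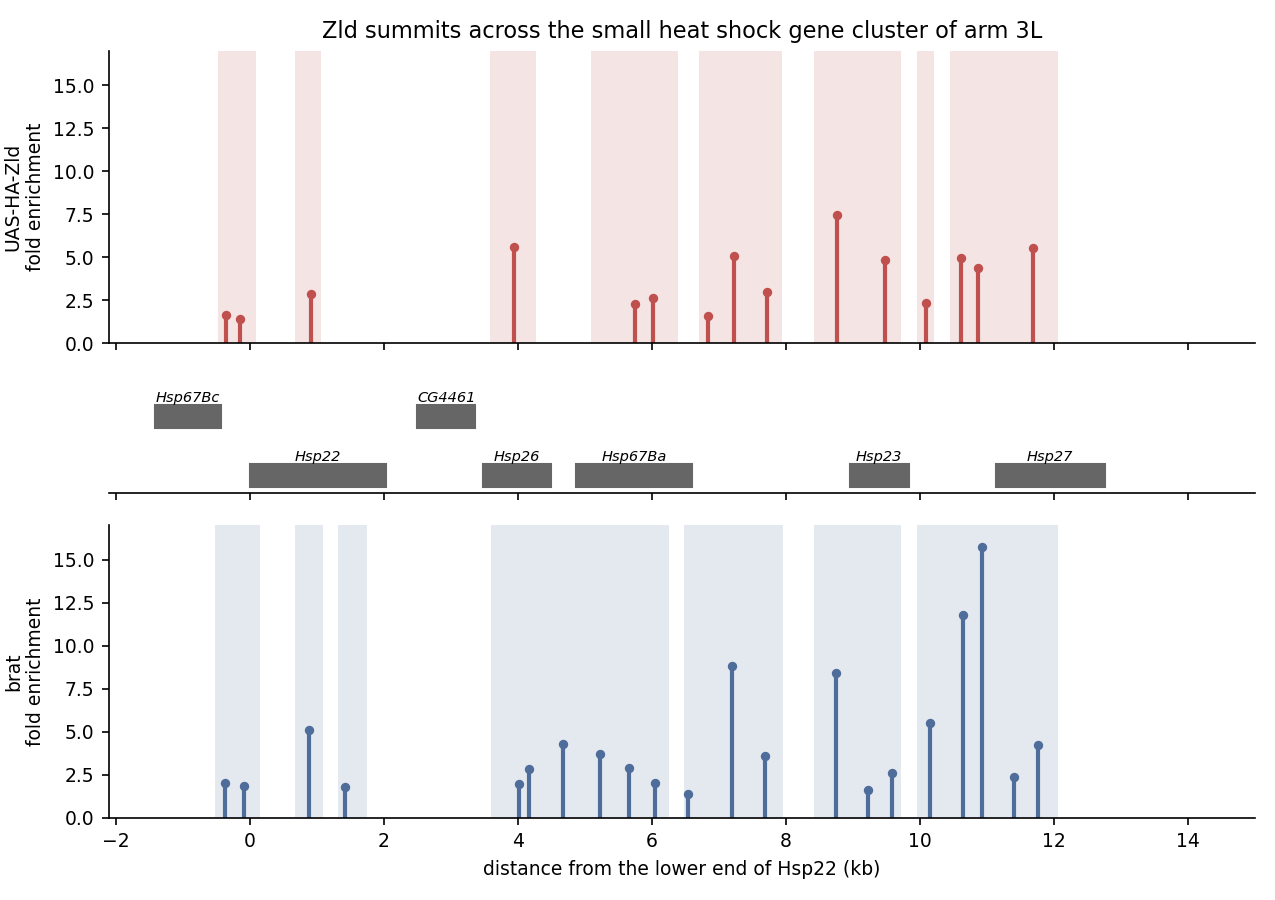
Zld summits over the 5 small heat shock genes of arm 3L, with UAS-HA-Zld above and brat below the genes; x axis, distance from the lower end of Hsp22 in kb; stems, fold enrichment at each summit; shaded bands, the authors' peaks. The brat stems of 11.8 and 15.7 stand below Hsp27, and the UAS-HA-Zld stem of 5.60 inside Hsp26 faces brat stems of 1.94 and 2.84.

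Taking the strongest summit in each window, the fold was lower in UAS-HA-Zld at 6 of the 8 genes, and by 1.5 times or more at 5. Over all protein-coding genes with a summit in both lists the shares were 69.5% and 37.8%, so the 8 genes read much like the rest on the first count. The second count includes Hsp83, Hsp23 and Hsp27, whose strongest summits lie 4081, 2163 and 760 bp apart between the lists and are different sites. With each pileup scaled to the floor of its list, 5 of the 8 were lower, since the log2 ratio at Hsp23 turned to 0.22 where the fold gave -1.08. No share over all protein-coding genes was computed on that scale, and the 69.5% holds for fold only. Hsp23 and Hsp27 share the brat summit with the highest −log10 q (449) of the 9 genes. By distance on the log2 scale over the 2 lists, the genes nearest to Hsp23 were Dsp1 and CG9921, which share folds of 7.33 in UAS-HA-Zld and 16.1 in brat (distance 0.0427), and CG4213, with 7.49 in UAS-HA-Zld and 15.2 in brat (0.0493). Nearest to Hsp27 were mRpS5, with 5.50 in UAS-HA-Zld and 15.6 in brat (0.0171), MFS17 (0.0387) and CG14234 (0.0698).

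Matched sites give the cleaner comparison. Mutual nearest summits within 150 bp formed 23 pairs at the 9 genes and 9022 pairs over both lists. At the heat shock genes the fold was lower in UAS-HA-Zld in 17 of 23 pairs, where 59% of all pairs were lower. It was lower by 1.5 times or more in 8 pairs, where the share over all pairs was 29.3%. The counting intervals lay apart with UAS-HA-Zld lower in 10 of the 23 pairs, against 3449 of all 9022 pairs (38.2%). They lay apart with UAS-HA-Zld higher in 4 pairs, against 2188 of the 9022, and overlapped in 9, against 3385. The median log2 ratio of UAS-HA-Zld over brat was -0.31 at the heat shock genes and -0.18 over all pairs. Scaling each pileup to the genome-wide floor of its own list moved the median of all pairs by 0.20 on the log2 scale, to 0.02. On that scale 12 of the 23 pairs were lower in UAS-HA-Zld, with a median of -0.06, against 49.1% of all pairs. Relative to the median of all pairs on each scale, 15 of 23 pairs were lower by fold and 12 of 23 by pileup. The count of lower pairs thus came near the background on the second scale. The 2 scales share the same pileups, and background in times the floor differed between the lists by ratios of only 0.953 to 1.54. Rescaling could therefore not reverse the sites with the largest differences, which were picked from these same pairs, and their unchanged direction is no support. On the second scale the log2 ratio of UAS-HA-Zld over brat was -1.67 at the strongest site below Hsp27 and -1.16 at the neighbouring one. The ratio was -1.05 above Hsp23, -0.83 and -1.30 inside Dlip3 below Hsf, 1.71 inside Hsp26 and 1.51 inside Hsp23.

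**Figure D4:**
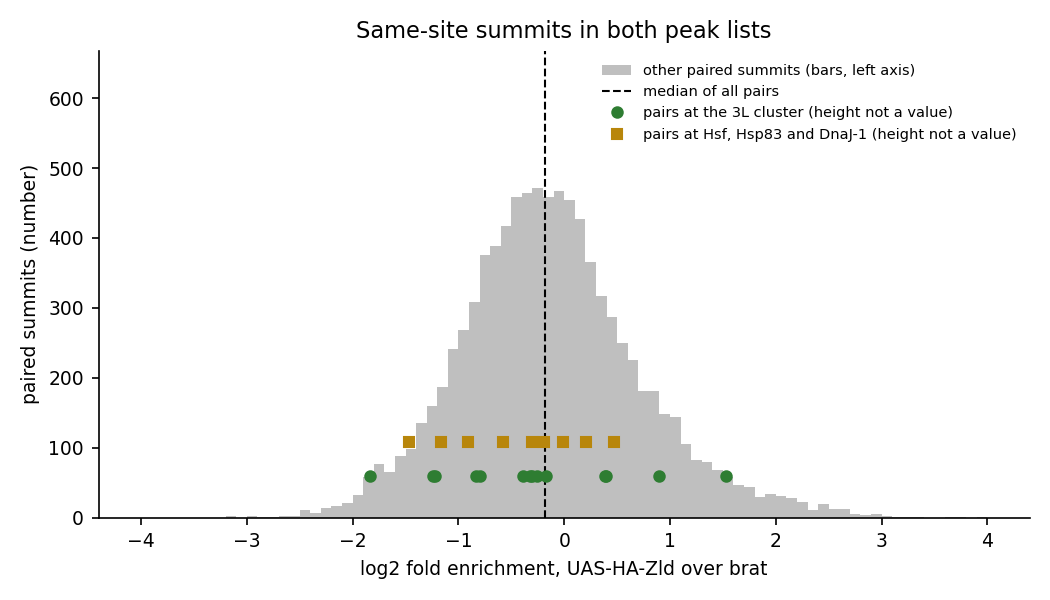
Log2 ratio of fold enrichment, UAS-HA-Zld over brat, at summits paired within 150 bp. Grey bars count the other pairs of both lists, the dashed line marks the median of all pairs (-0.18), and symbols mark the pairs at the 3L cluster (circles) and at Hsf, Hsp83 and DnaJ-1 (squares). The heat shock pairs span -1.84 to 1.53, within the range of all pairs.

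Of the summits without a partner, 1 was in UAS-HA-Zld and 22 were in brat. Of the 24 UAS-HA-Zld summits at the 9 genes 1 had none (4.17%), against 44.5% of all UAS-HA-Zld summits. Of the 45 brat summits 22 had none (48.9%), against 34.7% of all brat summits, and 13 of the 22 were at Hsp83. Without Hsp83, where UAS-HA-Zld peak numbers are absent, 9 of 31 brat summits had none (29.0%), a share below that of all brat summits. That share carries the same limit, since UAS-HA-Zld numbers are also absent around Hsp22 (5), Hsp26 and Hsp67Ba (3 each) and DnaJ-1 (1). The unpaired UAS-HA-Zld summit, above Hsp67Ba, had a fold of 1.60, and the unpaired brat summits had folds of 1.40 to 7.73.

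Summits at the 9 genes lay near gene ends no more often than those at all short genes. Within 500 bp of an end of a protein-coding gene lay 14 of 24 in UAS-HA-Zld (58.3%) and 26 of 45 in brat (57.8%). At all protein-coding genes no longer than 4332 bp the shares were 62.7% in UAS-HA-Zld and 69.2% in brat. Within 500 bp of an end of the heat shock genes themselves lay 10 of the 24 UAS-HA-Zld summits and 20 of the 45 brat summits. Inside a heat shock gene itself lay 9 of the 24 UAS-HA-Zld summits and 25 of the 45 brat summits (37.5% in UAS-HA-Zld and 55.6% in brat), and without Hsp83 9 of 23 in UAS-HA-Zld and 16 of 31 in brat (39.1% and 51.6%). At all protein-coding genes no longer than 4332 bp, 44.7% of UAS-HA-Zld summits and 44.5% of brat summits lay inside such a gene. Those shares count a summit inside any gene of that length. The shares for the 9 genes leave out summits inside neighbours such as Dlip3 and Usp47, so they cannot be set directly against each other. Local background at the summits was higher than at those other short genes, with medians of 2.83 against 2.27 times the floor in UAS-HA-Zld and 2.20 against 1.82 times in brat. In times the floor, the background was higher in UAS-HA-Zld than in brat at 22 of 23 pairs, with ratios of 0.953 to 1.54 and a median of 1.18, and over all pairs it was higher at 94.6%, with a median of 1.14. Its part in the fold differences was not tested.

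Among 37 other genes of the chaperone system, 21 had a summit in UAS-HA-Zld and 22 in brat, and the strongest fold was lower in UAS-HA-Zld at 17 of the 21 with summits in both. Over all protein-coding genes the shares were 43.1% for a UAS-HA-Zld summit, 43.4% for a brat summit and 69.5% for a lower fold, and the counts of the 3 lists that follow stand against the same shares. A list of 15 further inducible and small heat shock genes had summits at 6 in UAS-HA-Zld and at the same 6 in brat. Of these, Hsp67Bb, Hsp67Bc and CG4461 share summits with the cluster described above. The heat shock RNA gene lncRNA:Hsromega had a fold of 5.64 in UAS-HA-Zld and 17.6 in brat at its strongest summits, and Hsp60A, the mitochondrial chaperonin gene, 4.31 in UAS-HA-Zld and 23.2 in brat. The sixth gene, CG14207, had 2.22 in UAS-HA-Zld and 2.77 in brat. All 6 Hsp70 copies of the list had no summit in either list, but near-identical copies share reads, so whether Zld was found there is uncertain.

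Cognate chaperones, the relatives expressed without stress, had summits at 6 of 11 genes in each list. All 6 were lower in UAS-HA-Zld at the strongest summit, and the median log2 ratio was -0.75, against -0.36 over all 5098 protein-coding genes with summits in both lists and -0.94 over the 8 heat shock genes. The last value rests on strongest summits that are over 150 bp apart at 5 of the 8 genes, and with pileup scaled to the floor it was -0.17. Neither that scale nor the distance between strongest summits was computed for the other 2 groups. The -0.17 therefore cannot be set against their medians, which are by fold. The mitochondrial Hsp90 gene Trap1 had 7.50 in UAS-HA-Zld and 11.2 in brat, the mitochondrial Hsp70 gene Hsc70-5 7.52 in UAS-HA-Zld and 14.3 in brat. The exchange factor gene Hsp110, also called Hsc70Cb, had 6.06 in UAS-HA-Zld and 7.85 in brat, and Hsc70-3, the Hsp70 of the endoplasmic reticulum, 9.22 in UAS-HA-Zld and 20.6 in brat. Cochaperones had summits at 9 of 11 genes in UAS-HA-Zld and at 10 in brat. The strongest fold was lower in UAS-HA-Zld at 7 of the 9, against 69.5% of all protein-coding genes. The 2 others were higher. Dpit47, an Hsp90 cochaperone gene, had 10.7 in UAS-HA-Zld and 7.90 in brat, and Stip1, whose product bridges Hsp70 and Hsp90, had 8.71 in UAS-HA-Zld and 7.74 in brat. Cdc37, which brings kinases to Hsp90, had 8.61 in UAS-HA-Zld and 14.0 in brat, and CG7130 had 3.86 in UAS-HA-Zld and 5.28 in brat. STUB1, a chaperone-linked ubiquitin ligase gene, was the one gene of the 37 with a summit in 1 list only, with 0 in UAS-HA-Zld and 2 in brat, the stronger with a fold of 2.15.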

How the data were processed

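The submitters' processing notes name Bowtie2 and MACS2, with deepTools 3.5.1 and build dm6. No source used here gives the control, the filters or whether replicates were pooled. Each deposited list has a whole-number score, a fold enrichment (the ratio of pileup to local background with 1 added to each), a −log10 p-value, a −log10 q-value and, as another column (other), the summit's offset from the peak start, all made by the authors. Folds and q-values rank summits only within their own list.

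Summits were assigned to gene spans of the RefSeq gene table of the same assembly, which gives no strand, so gene ends are called lower and upper by position and starts are not told from ends. Pileup and background were solved from fold and p with a relative tolerance of 0.0001 for whole numbers. The solver, the windows and the pairing were tested on simulated data. Python 3.11.15, pandas 2.3.3 and scipy 1.17.1 were used.

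The 9 genes and the chaperone lists were chosen with earlier results of these data known. All 9 genes are named, with up to 4 genes per further list by −log10 q in UAS-HA-Zld, any gene with a summit in 1 list only, the 3 genes most like those with the strongest summit, and neighbours that share a summit. CG14207 was added after its values were seen. For 4 listed genes the table uses another symbol. A planned search for motifs in promoters was not run, since no sequence was used here. Alternatives changed window, threshold, list length, matching and scaling.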

Additional observations from a re-analysis of the deposited data

How the results depend on the processing

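No paired analysis was possible because each condition is given as 1 list, and leaving out a replicate was not possible for the same reason. Recomputed counts stayed within 1.5 times the reported value 68 times and moved further 4 times. With summits counted inside gene spans only, there were 9 in UAS-HA-Zld and 25 in brat, and 1 gene, Hsp83, had a summit in 1 list only, the brat list. Without the 5 clustered genes, 7 of 9 pairs had a lower fold in UAS-HA-Zld, a smaller count because fewer pairs enter. For the strongest summit of Hsp23, scaling pileup to the genome-wide floor gave a log2 ratio of UAS-HA-Zld over brat of 0.22, where the fold gave -1.08, and the summits compared are 2163 bp apart. On the same scale the ratio was 1.24 for Hsp26 (0.38 by fold), -0.52 for Hsp27 (-1.50) and -0.59 for Hsp83 (-1.38), and the cause was not tested. The summits compared are 728 bp apart for Hsp26, 760 bp for Hsp27 and 4081 bp for Hsp83, whose brat summit lies in an unmatched peak, so these are not changes at one site. The number of genes with fewer summits in UAS-HA-Zld ranged from 6 to 7. Leaving out Hsp83 and the alternatives for the pairs and for the fewer-summits count were chosen after seeing the data. Depth is limited to 1 list per condition, and peaks whose numbers are absent were not analysed here.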
